A study of Mus musculus with 7 samples.

Results

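The Runx and osteogenic regulators are 9 genes that direct bone and cartilage development: the transcription factors Runx1, Runx2 and Runx3, their partner Cbfb, and the transcription factors Sp7, Dlx5, Dlx6, Msx1 and Msx2. They were chosen by name, out of 18165 protein-coding genes that could be placed in both genome builds used here, and all 9 were found. For each, every ChIP-Seq peak was collected that lay within 1 kb of an annotated transcription start site (TSS), in the gene body or within 100 kb of the gene.

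The study mapped histone marks in primary mouse cells to find enhancers of Sox9. Chondrocytes from newborn rib cartilage, used within 2 passages, gave 2 replicate H3K27ac libraries, called Rep1 and Rep2, and 1 H3K4me2 library, with no genotype in their labels. Dermal fibroblasts from the back skin of newborn mice, the negative control, gave 1 H3K27ac library. A further pair of chondrocyte H3K27ac libraries came from E160Δ/Δ E308Δ/Δ mice and their WT littermates. The former lack the Sox9 enhancers E160 and E308 on both alleles. H3K27ac marks active promoters and enhancers, and H3K4me2 marks both active and poised ones.

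RUNX proteins bind DNA as a heterodimer with Cbfb. Runx2 is required for osteoblast formation and drives chondrocyte maturation together with Runx3, Sp7 (osterix) acts downstream of it in osteoblasts, and Dlx and Msx homeodomain proteins pattern the skeleton and act on Runx2 and its targets. The Runx genes each have a distal promoter, P1, at the 5′ end and a proximal promoter, P2, inside the gene, which start different protein isoforms.

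The 6 peak lists held from 19454 peaks (fibroblasts) to 66355 (H3K4me2) on chromosomes 1 to 19 and X, and their sequencing depth is unknown. A peak is therefore described by its width and by its rank by score within its own list, so that a peak in the top 10% is among the highest-scoring 10% of the list. The study names mm9, but Rep2 fitted GRCm38 gene positions and was taken to be on that build, the other lists being on mm9. Rep2 was therefore set beside them by promoter or by distance from the 5′ end of the gene. As a check of the labels, peaks were counted at the positions of both enhancers given in the study's text. The deletion list had 0 at E160 and 0 at E308, whereas the other mm9 lists, that of fibroblasts included, had 1 at each. Whether cells of several animals were pooled was not stated in the sources used here. Only chondrocyte H3K27ac had replicates, and no test between groups was run. Of 11 chondrocyte marker genes, 7 and 9 had a promoter peak in the 2 replicates, 10 in WT, 10 in the deletion list and 1 in fibroblasts, which was Sox9. Rep1 lacked one at Sox9, Sox5, Col2a1 and Matn1, and the H3K4me2 list lacked one at Col2a1 and Matn1. The study's text reports strong chondrocyte peaks in promoters and gene bodies of Col2a1, Acan and Sox9. At the Sox9 and Col2a1 promoters, the called peaks of Rep1 differ from that description. Of 9 dermal fibroblast markers, fibroblasts had a promoter peak at 7 and lacked one at Col1a1 and Col3a1. At Col1a1, which served as the fibroblast marker of the study, the fibroblast list had no peak in the gene, and its nearest was centred at +21.6 kb, whereas all 5 chondrocyte lists had peaks in the gene. The study's text reports fibroblast peaks at Col1a1. By RT-qPCR it reports high Col1a1 and low Sox9, Col2a1 and Acan expression in these cells. The called peaks of the fibroblast list thus did not bear out the label at this gene and differ from the study's description. The cause was not tested. The 2 replicates, WT and the deletion list had promoter peaks at 5, 8, 8 and 8 of the fibroblast markers, so these do not separate the cell types. No blood, endothelium, muscle or keratinocyte marker had an H3K27ac promoter peak in any list. Of 5 osteoblast markers, Bglap, Bglap2 and Ibsp had no promoter peak in any list, and Alpl had one for H3K4me2 only. Sp7, itself one of the 9 genes, had one for H3K4me2 and in WT.

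The promoter sequences that carry the clearest difference between the Runx promoters are shown first. Each line gives bases that lie before the first annotated exon of that promoter, from the RefSeq promoter table (GRCm38), 5′ to 3′ on the strand of the gene, with CpG dinucleotides in capitals. They lie at chr16:92826125-92826324 (minus strand), chr16:92697380-92697579 (minus), chr4:135120395-135120594 (plus) and chr4:135152295-135152494 (plus).
Runx1 P1: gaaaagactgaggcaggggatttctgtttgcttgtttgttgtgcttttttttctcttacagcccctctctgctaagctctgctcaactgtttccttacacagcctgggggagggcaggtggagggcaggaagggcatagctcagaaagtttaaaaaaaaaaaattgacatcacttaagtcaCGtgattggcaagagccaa
Runx1 P2: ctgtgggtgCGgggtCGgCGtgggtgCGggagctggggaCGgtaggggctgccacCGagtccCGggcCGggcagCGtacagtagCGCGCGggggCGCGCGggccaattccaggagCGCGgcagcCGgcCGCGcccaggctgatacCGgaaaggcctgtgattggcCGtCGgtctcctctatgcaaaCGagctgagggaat
Runx3 P1: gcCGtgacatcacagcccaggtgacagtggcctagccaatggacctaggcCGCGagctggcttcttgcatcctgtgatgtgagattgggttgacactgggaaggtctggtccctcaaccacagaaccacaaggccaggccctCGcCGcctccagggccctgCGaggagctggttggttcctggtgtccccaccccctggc
Runx3 P2: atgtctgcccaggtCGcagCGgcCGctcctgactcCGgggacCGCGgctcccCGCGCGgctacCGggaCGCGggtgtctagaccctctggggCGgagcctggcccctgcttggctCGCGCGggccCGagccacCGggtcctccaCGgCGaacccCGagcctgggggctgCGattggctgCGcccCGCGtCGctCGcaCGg

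Capitals are scarce at P1 and dense at P2. Over the 300 bases from 250 before to 50 after the TSS, Runx1 P1 held 2 CpG and Runx1 P2 held 35. Runx3 P1 held 8 and Runx3 P2 held 45. Runx2 P1 held 2, like Runx1 P1, and RefSeq gave no window for Runx2 P2 in the table used. The median of 32619 RefSeq promoter windows was 7 CpG, so that Runx1 P1 and Runx2 P1 each had more than 13.9% of the windows, Runx3 P1 more than 51.1%, Runx1 P2 more than 93% and Runx3 P2 more than 98.1%. Cbfb held 30, Msx1 29 and Msx2 22. Sp7, Dlx5 and Dlx6 had no sequence in the table.

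The 3 P1 promoters shared a sequence that the P2 promoters of Runx1 and Runx3 lacked. RUNX proteins bind a core that was searched as TGTGGT and TGCGGT on both strands (ACCACA and ACCGCA on the other). Runx1 P1 had 2 matches, Runx2 P1 had 4 and Runx3 P1 had 2, whereas Runx1 P2, Runx3 P2, Cbfb, Msx1 and Msx2 had 0. At least 1 match was present in 22.3% of all promoter windows. In each P1, 2 of the matches stood in tandem, and the 30 bases around them are shown with the matches in capitals, 5′ to 3′ on the strand of the gene, at chr16:92826029-92826058 (minus), chr17:44814587-44814616 (minus) and chr4:135120499-135120528 (plus) of GRCm38.
Runx1 P1: acctcataaacaACCACAgaACCACAagtt
Runx2 P1: gcctcacaaacaACCACAgaACCACAagtg
Runx3 P1: tctggtccctcaACCACAgaACCACAaggc

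The first base of the tandem was base 28 after the TSS in Runx1, base 23 after it in Runx2 and base 134 before it in Runx3. The tandem, ACCACANNACCACA with TGTGGTNNTGTGGT for the other strand, was looked for after it had been seen in these 3 promoters. It was present in 7 of the 32619 windows (0.0215%), of which 3 were the Runx P1 promoters. A match describes these letters only and says nothing about binding in these cells.

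All 9 genes had H3K4me2 at a promoter in chondrocytes, while H3K27ac was present at some. The number of the 9 genes with an H3K27ac promoter peak was 5 in chondrocyte Rep1, 5 in Rep2, 7 in WT, 5 in the deletion list and 4 in fibroblasts. The share of all 18165 genes marked in the same way was 47.2%, 46.1%, 52.6%, 49.8% and 50.3%, in that order, and 69.5% for H3K4me2. In all, 4 patterns over the lists covered the 9 genes. Runx1, Runx2, Runx3 and Cbfb had a promoter peak in all 6 lists, as 39.9% of all genes did. Dlx5 had one in every list except that of fibroblasts. Sp7 and Dlx6 had one for H3K4me2 and in WT alone, as 0.914% of all genes did. Msx1 and Msx2 had one for H3K4me2 alone. These counts depend on list length and start sites. With lists cut to equal numbers of top peaks H3K4me2 marked 5 of the 9 genes, with the higher-scoring 50% WT marked 4, and with the 5′ end as the only start site fibroblasts marked 2.

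**Figure D1:**
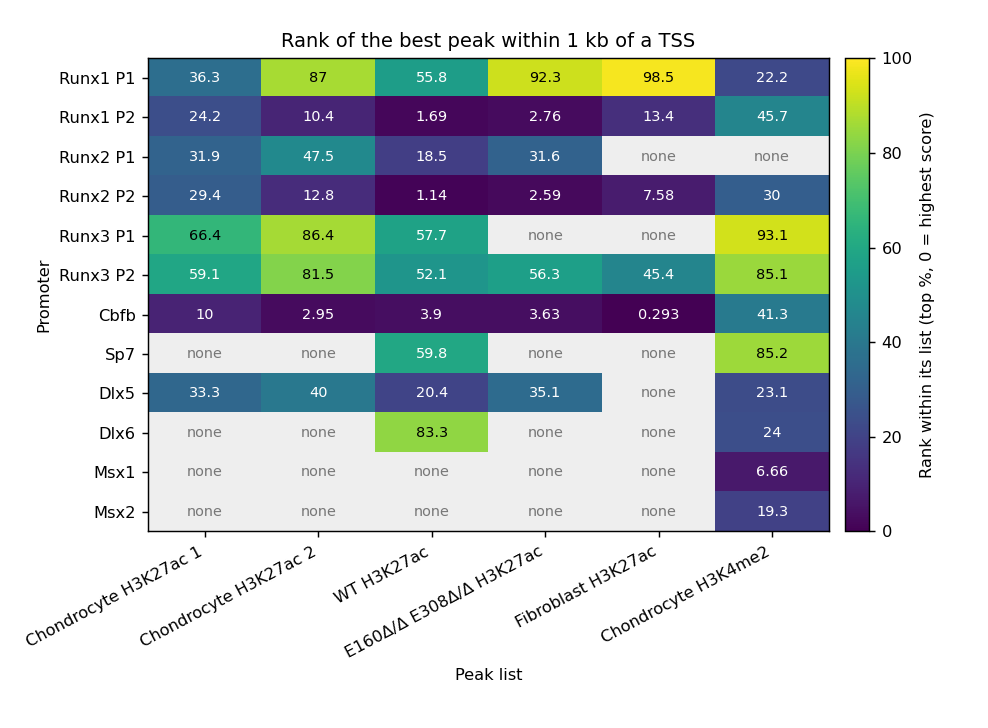
Rank of the best peak within 1 kb of a TSS for each promoter of the 9 genes (rows) in each peak list (columns), as the top percentage of that list by score, with "none" where there was no peak. Runx1 P2, Runx2 P2 and Cbfb ranked high in all H3K27ac lists, Runx2 P1 and Dlx5 had no fibroblast peak, and Msx1 and Msx2 had H3K4me2 alone.

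Split by start site, the 9 genes have 12 promoters. H3K27ac was present at 8 of them in Rep1, 8 in Rep2, 10 in WT, 7 in the deletion list and 5 in fibroblasts, and H3K4me2 at 11. The P2 promoters of the 3 Runx genes were marked in all 6 lists. Their P1 promoters were marked at 3 of 3 genes in Rep1, Rep2 and WT, at 2 in the deletion list and for H3K4me2, and at 1 in fibroblasts. With start sites over 10 kb apart counted as separate promoters in the same way, 2819 of all genes have 2 promoters. Their first was marked at 56.5% in Rep1, 56.4% in Rep2, 64.2% in WT, 60.7% in the deletion list, 61.6% in fibroblasts and 81.6% for H3K4me2, and their second at 9.97%, 6.56%, 11.2%, 8.87%, 8.55% and 21.7%. Over all 25098 promoters the shares were 35.8%, 34.2%, 40.4%, 37.7% and 37.7%, and 55.7% for H3K4me2. The pattern of Runx2 P1, with H3K27ac in the 4 chondrocyte lists and none in fibroblasts, was found at 1.99% of first promoters and 1.33% of all promoters.

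Runx2, the regulator of osteoblast differentiation, had H3K27ac at both promoters in chondrocytes and at P2 alone in fibroblasts. At P1 (mm9, chromosome 17, minus strand, 5′ end of the gene at 44951746), Rep1 had a peak of 4644 bp in the top 31.9% of its list. Rep2 had 2 peaks there, the better in the top 47.5% with a fold enrichment of 5.64 over the local background. WT had a peak of 7764 bp at chr17:44945559-44953322, in the top 18.5% with a fold enrichment of 17.5. The deletion list had a peak of 5999 bp in the top 31.6% with a fold enrichment of 8.68. All 4 chondrocyte H3K27ac lists thus marked Runx2 P1, and the fibroblast list did not. The H3K4me2 list had no peak within 1 kb of a P1 start site either, and its nearest one inside the gene was 3447 bp wide and centred at +10.2 kb.

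At Runx2 P2, 78.1 kb into the gene, the same lists and that of fibroblasts all had a wide peak. Rep1 had 5124 bp in the top 29.4%. Rep2 had 3171 bp in the top 12.8%, placed by distance because the GRCm38 tables held no P2 start site. WT had 7287 bp in the top 1.14% with a fold enrichment of 45.9, the deletion list 6024 bp in the top 2.59% with 28, and fibroblasts 4022 bp in the top 7.58%. H3K4me2 had 3536 bp in the top 30%. P2 was therefore present in both cell types, with no list lacking it.

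The WT peak at Runx2 P1 had its summit at position 44950627 of mm9. The 200 bases around it are shown because they hold 2 matches to the RUNX core (capitals), read from the mm9 genome on its plus strand, at chr17:44950527-44950726.
Runx2 P1 summit: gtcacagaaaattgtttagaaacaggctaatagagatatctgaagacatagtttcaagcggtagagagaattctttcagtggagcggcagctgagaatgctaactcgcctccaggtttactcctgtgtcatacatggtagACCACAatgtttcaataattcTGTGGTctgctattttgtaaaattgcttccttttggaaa

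At least 1 match was present at 15.5% of the 33369 WT summits cut in the same way. Of the 12 regions described further on as marked in chondrocytes and not in fibroblasts, this was the 1 with a match (8.33%).

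**Figure D2:**
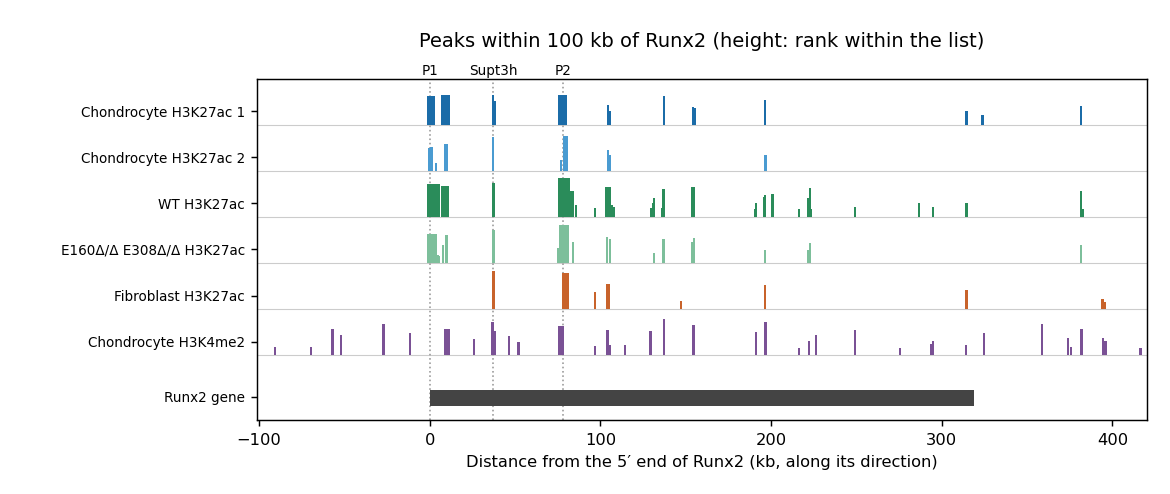
Peaks of the 6 lists from 100 kb before to 100 kb after Runx2, by distance from its 5′ end along the direction of the gene (kb). Bars are as wide as the peaks (with a minimum width for display), bar height is the rank within the list (tallest for the highest score) and the dark bar is the gene. P1 and the +9 kb peak carry chondrocyte H3K27ac and no fibroblast peak, and the peak at the Supt3h start site and P2 are in all lists.

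Beyond its promoters, Runx2, a gene of 319 kb, held most of its peaks in introns. The body held 10 peaks in Rep1, 8 in Rep2, 27 in WT, 16 in the deletion list, 6 in fibroblasts and 23 for H3K4me2. The Rep2 count includes the 2 peaks at P2, which fell in the body because the GRCm38 tables held no P2 start site. Just inside P1, at about +9 kb, an intronic region was marked in Rep1 (4931 bp, top 29%), Rep2 (2405 bp, top 36.1%), WT (4743 bp, top 23.7%), the deletion list (1947 bp, top 35.1%) and for H3K4me2 (top 40.1%), with no fibroblast peak. The highest-ranking fibroblast peak of the window (top 2.12%) stood at +37.4 kb, at the start site of Supt3h, a gene on the other strand that begins inside a Runx2 intron. That region was in all 6 lists, and the peak there cannot be assigned to Runx2. Regions at +105 kb and +196 kb inside the gene were also in all 6 lists. The highest-ranking H3K4me2 peak (top 8.14%) was at +137 kb in an intron, where Rep1, WT and the deletion list had H3K27ac, and Rep2 and fibroblasts did not.

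Runx1, which forms blood cells and is also expressed in early chondrocytes, also had the higher-ranking H3K27ac at P2. At P1, the peak was 1438 bp in the top 36.3% in Rep1, 694 bp in the top 87% in Rep2, 931 bp in the top 55.8% in WT and 821 bp in the top 92.3% in the deletion list. Fibroblasts had 429 bp in the top 98.5%, near the bottom of that list, and H3K4me2 had 1755 bp in the top 22.2%. At P2, 129 kb into the gene, the peak was 6086 bp in Rep1 (top 24.2%), 4092 bp in Rep2 (top 10.4%), 6428 bp in WT (top 1.69%), 5577 bp in the deletion list (top 2.76%), 4605 bp in fibroblasts (top 13.4%) and 3339 bp for H3K4me2 (top 45.7%). H3K27ac thus ranked higher at P2 than at P1 in all 5 H3K27ac lists, and H3K4me2 ranked higher at P1. The replicates stood far apart in rank at P1 and closer together at P2.

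Inside Runx1, a gene of 225 kb, 3 intronic regions had H3K27ac in all 4 chondrocyte lists, H3K4me2, and no fibroblast peak. The first, at +52.4 kb (WT peak chr16:92773219-92774493 of mm9), was the highest-ranking peak of the window in Rep1 (top 11.6%), but stood in the top 71.8% in Rep2, 30% in WT and 36.8% in the deletion list. The second, at +180 kb (WT peak chr16:92644822-92647306), stood in the top 26.8%, 77.9%, 30% and 40.8% of the same lists. The third, at +217 kb (WT peak chr16:92608818-92610400), stood in the top 21.7%, 46%, 46.5% and 57.1%. A fibroblast peak with no chondrocyte H3K27ac in turn lay at −89.9 kb (top 68.7%), +2.55 kb (top 88.1%) and +253 kb (top 73.7%).

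Runx3, which acts with Runx2 in cartilage and is best known in lymphocytes, had lower-ranking promoter peaks. At P1, Rep1 had 2 peaks, the better in the top 66.4%. Rep2 had 1 of 416 bp in the top 86.4%, WT 2 with the better in the top 57.7%, and H3K4me2 1 of 490 bp in the top 93.1%. Fibroblasts and the deletion list had none. At P2, 31.8 kb into the gene, the best peak stood in the top 59.1% and 81.5% in the replicates, 52.1% in WT, 56.3% in the deletion list, 45.4% in fibroblasts and 85.1% for H3K4me2. Every Runx3 promoter peak thus ranked below the top 50% of its list, except that of fibroblasts at P2.

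Around Runx3, 2 regions had H3K27ac in the 4 chondrocyte lists, H3K4me2 and no fibroblast peak. The region at +26.2 kb, in the intron before P2 (WT peak chr4:134702127-134703326 of mm9), stood in the top 14.7% in Rep1, 54.1% in Rep2, 45% in WT and 68% in the deletion list. The region at −24.8 kb, upstream of P1 (WT peak chr4:134651769-134652539), stood in the top 28.5%, 47.5%, 29.6% and 50.9%. The highest-ranking H3K27ac peak of the window was at 150 to 151 kb in every H3K27ac list, which in the mm9 lists was the start site of the neighbouring gene Clic4.

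**Figure D3:**
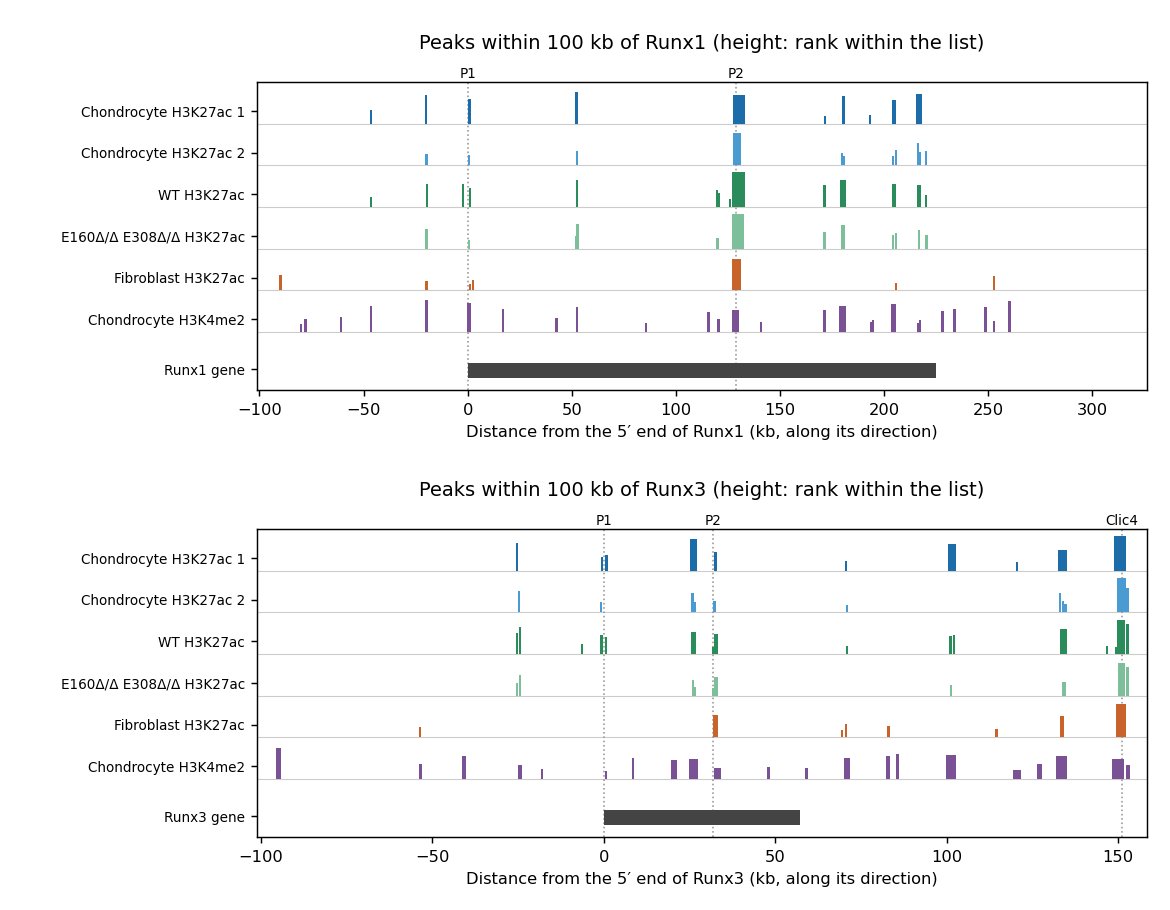
Peaks of the 6 lists around Runx1 (upper panel) and Runx3 (lower panel), by distance from the 5′ end of each gene along its direction (kb), with bar height as rank within the list and the dark bar as the gene. Runx1 P2 carries a wide peak in all lists, while the intronic peaks at +52.4, +180 and +217 kb of Runx1 and at +26.2 kb of Runx3 have no fibroblast counterpart.

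Cbfb, the shared partner of the RUNX proteins, had a high-ranking promoter peak in all 5 H3K27ac lists. Its H3K27ac peak was 1948 bp in Rep1 (top 10%), 2268 bp in Rep2 (top 2.95%), 3271 bp in WT (top 3.9%), 2709 bp in the deletion list (top 3.63%) and 2422 bp in fibroblasts (top 0.293%). The fold enrichments were 23.1 in Rep2, 25.8 in WT and 23.2 in the deletion list. H3K4me2 covered 3724 bp in the top 41.3%. The fibroblast peak ranked highest of the 5, and a rank in 1 list is not comparable in strength with a rank in another. A region at −17.7 kb had H3K27ac in the 4 chondrocyte lists (top 57.7% in WT) and H3K4me2, and none in fibroblasts.

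Dlx5, a homeodomain activator of Runx2 and Sp7, had promoter H3K27ac in each chondrocyte list while fibroblasts lacked it, and was the 1 gene of the 9 to do so when a peak at any of its start sites counted. Runx2 P1 had the same pattern on its own, with fibroblast H3K27ac at P2. The peak was 1715 bp in Rep1 (top 33.3%), 621 bp in Rep2 (top 40%), 2681 bp in WT (top 20.4%, chr6:6829424-6832104 of mm9) and 2522 bp in the deletion list (top 35.1%). The Rep1 peak began 974 bp after the 5′ end and did not cover it. With a promoter window of 500 bp, Rep1 marked 4 of the 9 genes and no longer Dlx5, so the pattern depends on the 1 kb window. H3K4me2 covered 3559 bp in the top 23.1%, and fibroblasts had none. H3K27ac in each of the 4 chondrocyte lists without a fibroblast peak was found at 1 of the 9 genes and at 262 of all genes (1.44%). With H3K4me2 also required, Dlx5 shared its pattern with 245 genes counting itself, among them Acan, Col9a1, Col11a2, Comp, Hapln1, Matn3 and Sox6, genes of cartilage, and Col1a1 and Twist1. These names were looked up in short preset lists of markers and osteogenic genes, and the rest of the 245 were not examined. Of the 11 chondrocyte markers, Sox9, Sox5, Col2a1 and Matn1 did not have the pattern. The reverse, fibroblast H3K27ac and none in the 4 chondrocyte lists, was found at 0 of the 9 and 1.78% of all genes.

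Dlx6, the neighbour of Dlx5 on the other strand, had H3K4me2 over 2159 bp (top 24%) at its promoter. H3K27ac was limited to 1 peak of 372 bp in WT (top 83.3%, fold enrichment 3.83), and Rep1 and Rep2, the deletion list and fibroblasts had none. The genes lie with their 3′ ends facing each other, and upstream of Dlx6, whose start site was the nearest, 2 regions carried chondrocyte marks. At +79.8 kb from the Dlx5 TSS (WT peak chr6:6751221-6752863), H3K27ac was in Rep1 (top 41.3%), Rep2 (top 81.5%), WT (top 29.6%) and the deletion list (top 43.1%), and H3K4me2 stood in the top 7.49%. At +51.6 kb, Rep1 (top 37.7%), WT (top 25%), the deletion list (top 30.2%) and H3K4me2 (top 22.7%) had a peak and Rep2 did not. Fibroblasts had neither, and their 3 peaks in the window were at −49.5 kb (top 86%) and near the start site of Acn9.

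Sp7, the osteoblast factor, had little H3K27ac at its promoter. WT had 3 short peaks that together covered 1297 bp, the best in the top 59.8% with a fold enrichment of 6.15, and H3K4me2 had 1 of 817 bp in the top 85.2%. Rep1 and Rep2, the deletion list and fibroblasts had none. Inside the gene, at +3.89 kb, WT (1436 bp, top 37.2%), the deletion list (989 bp, top 45.4%) and H3K4me2 (734 bp, top 79.6%) had an intronic peak that the replicates and fibroblasts lacked. At +11.3 kb, by the 3′ end, Rep2 (top 54.1%), WT (top 26%), the deletion list (top 46.9%) and H3K4me2 (top 40.2%) had a peak. Rep1 and fibroblasts had none there, and the nearest start site was that of Aaas. At −10.7 kb, a region whose nearest start site is that of Sp7 had a peak in all 6 lists, in the top 7.11% for H3K4me2, 11.6% in WT and 38.1% in fibroblasts. Most other peaks of this window lay at start sites of neighbouring genes such as Sp1, Rarg, Mfsd5 and Aaas. Sp1 had the highest-ranking WT peak of the window (top 0.243%). Away from the promoters of the 9 genes, 5 Rep1 peaks stood in the top 10% of their list, and their nearest start sites were those of Clic4 in the Runx3 window and Sp1, Gm17671, Mfsd5 and Rarg in the Sp7 window.

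Msx1 and Msx2, homeodomain repressors of craniofacial and limb development, had H3K4me2 at the promoter without H3K27ac. At Msx1 the H3K4me2 peak covered 2627 bp in the top 6.66% (chr5:38213958-38216584 of mm9). At Msx2 it covered 1755 bp in the top 19.3% (chr13:53567002-53568756). None of the 5 H3K27ac lists had a peak within 1 kb of either TSS. H3K4me2 without H3K27ac in any of the 4 chondrocyte lists was found at 2 of the 9 genes and at 16.2% of all genes. With fibroblast H3K27ac also absent, as at Msx1 and Msx2, the share was 14.6% of all genes. Among the other osteogenic genes examined, this stricter H3K4me2-only pattern was found at Alpl, Col10a1, Mmp13, Dmp1, Ihh, Tnfsf11, Dlx3, Dlx4 and Msx3. Markers of unrelated lineages had it as well, namely Myf5 and Des of muscle, Kdr of endothelium and Trp63 of keratinocytes. The pattern is thus not particular to skeletal genes. The Msx1 promoter is shown as bases upstream of the gene at chr5:37824636-37824835 of GRCm38 (minus strand), with CpG in capitals, as a CpG-dense promoter with no H3K27ac peak.
Msx1: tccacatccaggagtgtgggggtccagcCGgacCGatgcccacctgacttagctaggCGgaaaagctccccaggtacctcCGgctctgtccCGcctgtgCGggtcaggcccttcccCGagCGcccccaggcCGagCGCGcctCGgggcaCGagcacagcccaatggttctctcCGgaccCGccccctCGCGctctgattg

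The Msx1 window was otherwise split by distance. H3K27ac was absent from its upstream side and from the gene in every list. Downstream, at +80.4, +93.7 and +99 kb, 3 regions had H3K27ac in all 4 chondrocyte lists and H3K4me2. The first stood in the top 25.2% in Rep1, 47.9% in Rep2, 26.5% in WT and 43.1% in the deletion list. Their nearest start sites were those of Cytl1, a secreted protein of cartilage, for the first pair and Stk32b for the last, not that of Msx1. Fibroblasts had no peak in the whole Msx1 window, which was the case for 18.1% of all genes. The Msx2 window had no Rep1 peak, which was the case for 17.5% of all genes, and the other H3K27ac lists had 1 peak each there, at the Sptlc1 start site about 96 kb away. H3K4me2 had 6 peaks in the Msx2 window, and the best (top 7.54%) was at +10.6 kb.

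**Figure D4:**
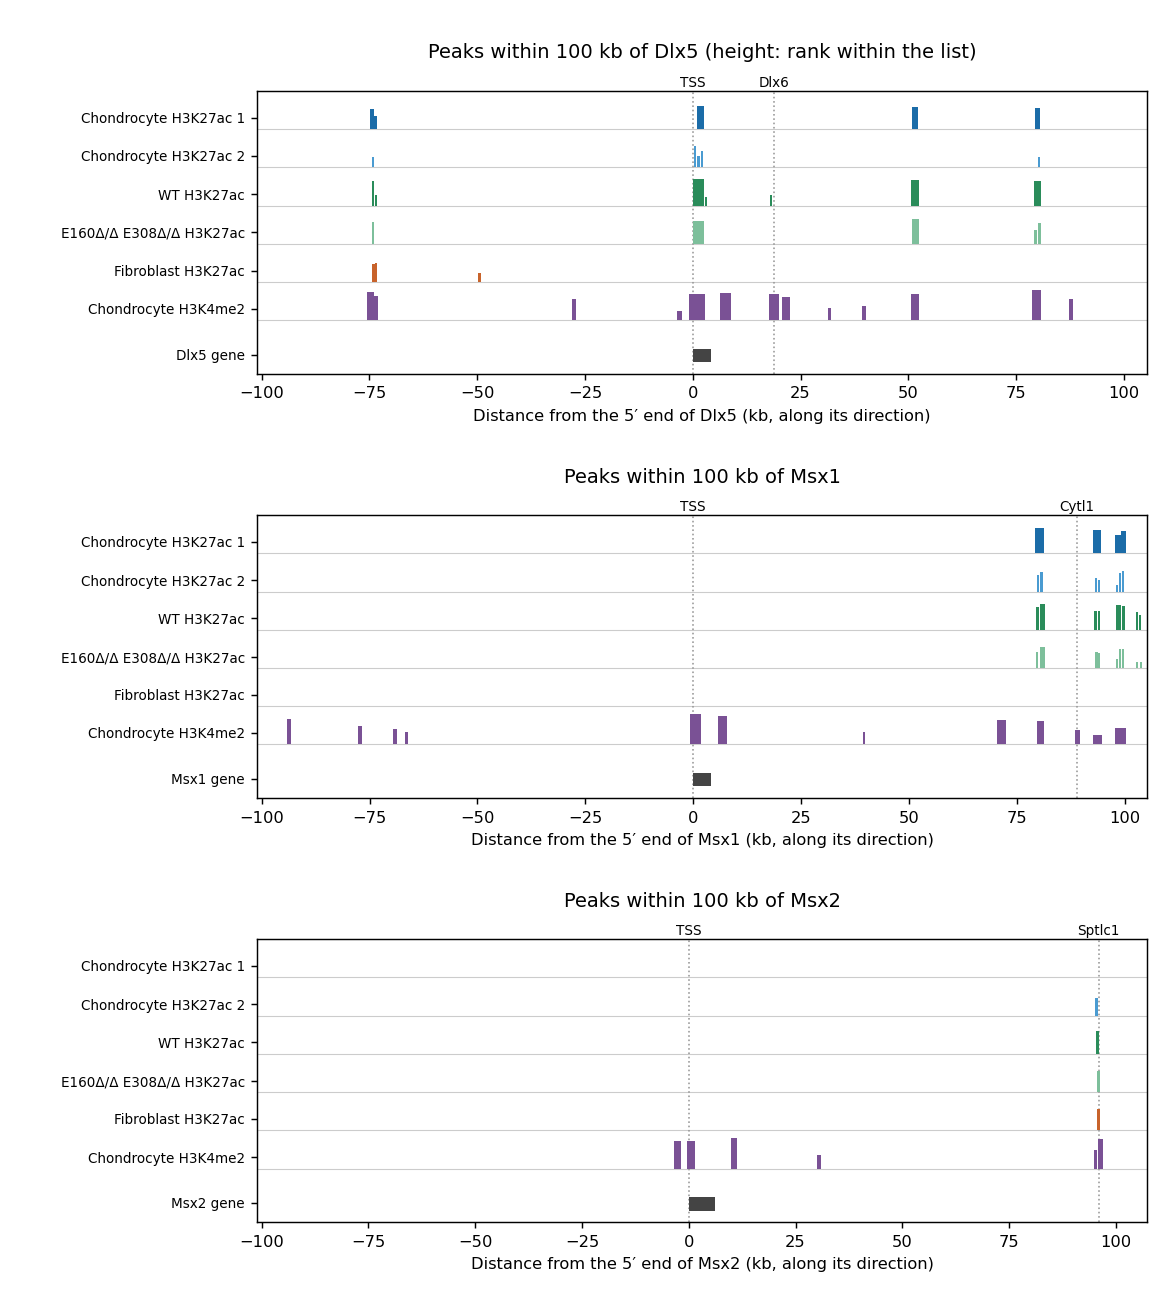
Peaks of the 6 lists around Dlx5 with Dlx6, Msx1 and Msx2, by distance from the 5′ end of each gene along its direction (kb), with bar height as rank within the list and the dark bar as the gene. Dlx5 carries chondrocyte H3K27ac within 1 kb of its TSS, and Msx1 and Msx2 carry H3K4me2 alone at theirs, with chondrocyte H3K27ac near Cytl1 at the far end of the Msx1 window.

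Over the 9 genes, peaks in the gene body outside promoters were found at 4 genes in Rep1 (20 peaks), 4 in Rep2 (20), 6 in WT (42), 5 in the deletion list (29), 3 in fibroblasts (9) and 5 for H3K4me2 (46). The share of all genes with such a peak was 17.8%, 13.9%, 18.5%, 13.8%, 12.6% and 34.3%, in the same order. The Rep2 total of the 9 genes includes the 2 peaks at Runx2 P2, which has no start site in the GRCm38 tables. Runx1, Runx2 and Runx3 are long genes, and the length was not matched between the 9 genes and the rest. The windows together cover 2.29 Mb and held 30.2 peaks per Mb in Rep1 against 9.7 over the genome, 27.1 against 7.77 in Rep2, 45.5 against 12.6 in WT, 34.1 against 9.56 in the deletion list, 20.1 against 7.37 in fibroblasts and 68.6 against 25.2 for H3K4me2. The windows are centred on genes and the genome is not, which was not adjusted for.

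Peaks that lay together were joined into 161 regions by distance. Of these, 25 were in all 6 lists, of which 5 were promoters of the 9 genes and 14 were promoters of neighbours. H3K4me2 alone marked 65. H3K27ac in all 4 chondrocyte lists without a fibroblast peak marked 12, all with H3K4me2, of which 2 were promoters of the 9 genes (Runx2 P1 with the adjoining +9 kb peaks, and Dlx5) and none was at a neighbour's start site. In the joined Runx2 region, H3K4me2 came from the peak centred at +10.2 kb, and P1 itself had none. With regions built in the same way in the window of each of the 18165 genes, 21.9% were in all 6 lists (15.5% here), 38.7% had H3K4me2 alone (40.4% here), 3.31% had the chondrocyte pattern (7.45% here) and 4.79% the fibroblast pattern described next (5.59% here). Windows of neighbouring genes share regions, and gene 5′ ends that differ between the annotations misplace Rep2 peaks. In windows of genes whose length differed by at most 500 bp the shares came to 24.9%, 39.2%, 3.68% and 5.02%, in the same order. Fibroblast H3K27ac without any chondrocyte H3K27ac marked 9, all away from start sites, and 4 of them carried H3K4me2 in chondrocytes. The fibroblast peaks of these 9 ranked low, from the top 68.7% to the top 97.8% of the list.

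H3K4me2 and H3K27ac were compared peak by peak in chondrocytes with Rep1, whose list has the same format and build. In the windows, 66 of 69 H3K27ac peaks overlapped an H3K4me2 peak, or 95.7% (95% CI, 87.8–99.1, exact binomial), against 90.2% of all Rep1 peaks. In the other direction, 66 of 157 H3K4me2 peaks overlapped H3K27ac, or 42% (34.2–50.2), against 35.2% of all H3K4me2 peaks. Within 1 kb of a TSS the share was 26 of 37, or 70.3% (53–84.1), against 60.9%, and away from start sites 40 of 120, or 33.3% (25–42.5), against 25.9%. By gene, it ran from 15 of 22 at Sp7 and 12 of 19 at Cbfb, in gene-dense windows, to 11 of 38 at Runx2, 3 of 12 at Msx1 and 0 of 6 at Msx2. The shares depend on list length and on overlap. With equal numbers of top peaks, 52.2% of H3K27ac peaks had H3K4me2 and 64.8% of H3K4me2 peaks had H3K27ac, and with 50% reciprocal overlap these came to 60.9% and 26.8%. These intervals cover counting error only, treat peaks as independent and leave out the spread between libraries.

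Chondrocytes were compared with fibroblasts in the same way. In the windows, 34 of 69 Rep1 peaks had no fibroblast peak, or 49.3% (37–61.6), against 48.3% of all Rep1 peaks. Conversely, 14 of 46 fibroblast peaks had no Rep1 peak, or 30.4% (17.7–45.8), against 37.6%, and 58.7% lacked one with 50% reciprocal overlap. Within 1 kb of a start site, 7 of 26 Rep1 peaks had no fibroblast peak, or 26.9% (11.6–47.8), against 14.6%. Away from start sites it was 27 of 43, or 62.8% (46.7–77), against 70.1%. Each interval held the value of the whole list, so at this number of peaks no difference between the windows and the genome was detectable.

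**Figure D5:**
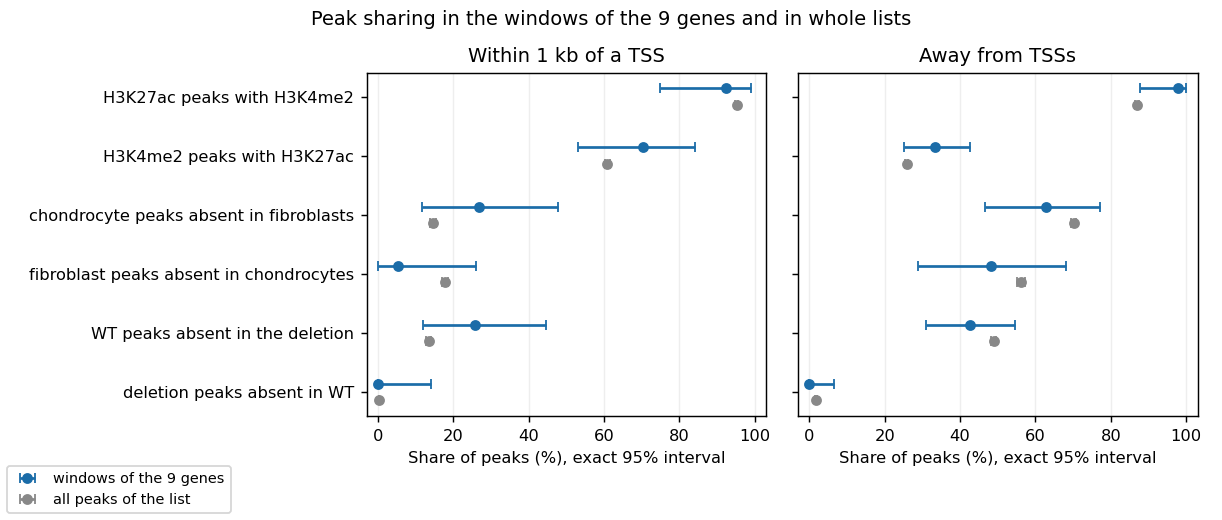
Share of peaks (percent) that had or lacked a partner in a second list, within 1 kb of a TSS (left) and away from start sites (right), in the windows of the 9 genes (blue) and over the whole list (grey), with exact 95% binomial intervals. The intervals of the windows hold the value of the whole list, the exception being the 97.7% of H3K27ac peaks away from start sites that had H3K4me2, against 87%.

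Between WT and E160Δ/Δ E308Δ/Δ chondrocytes, the peaks that differed were WT peaks with no counterpart. None of 78 deletion peaks in the windows lacked a WT peak, which allows a share of up to 4.62%, against 1.12% of all deletion peaks. Of 104 WT peaks, 39 lacked a deletion peak, or 37.5% (28.2–47.5), against 37.2% of all WT peaks. With equal numbers of top peaks it was 20.3%. The loss followed rank. In the higher-scoring 50% of the WT list, 2 of 51 were absent in the deletion list (3.92%, against 2.04% of all), and in the lower-scoring 50%, 37 of 53 (69.8%, against 71.1%). Runx2 lost 18 of 31 WT peaks, 17 of them in the gene body, all between the top 48.1% and the top 97% of the WT list. Msx1 lost none of 8. The promoter peaks absent in the deletion list, those of Sp7 (top 59.8%), Dlx6 (top 83.3%) and Runx3 P1 (top 57.7%), were in the lower-scoring part of the WT list as well. With 1 library for each genotype, a difference of genotype and a difference of depth between the libraries cannot be told apart.

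The 2 chondrocyte replicates were compared by distance from the 5′ end. In the windows, 58 of 62 Rep2 peaks (93.5%) had a Rep1 peak within 1 kb, and 48 of 69 Rep1 peaks (69.6%) had a Rep2 peak. By gene, all Rep2 peaks of Runx2, Runx3, Dlx5 and Msx1 had a partner. At the promoters of the 9 genes, the replicates marked the same 5 genes. Agreement of the replicates over all genes was not computed, so these values cannot be set against the lists in general.

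Of 34 other osteogenic genes with a position in both builds, the promoter was marked at 12 in Rep1, 15 in Rep2, 20 in WT, 17 in the deletion list, 12 in fibroblasts and 27 for H3K4me2. Over all 18165 genes the shares were 47.2%, 46.1%, 52.6%, 49.8%, 50.3% and 69.5%, in that order. Those marked in both replicates and not in fibroblasts were Col1a1, the main collagen of bone and, as described above, without a fibroblast peak although it marks fibroblasts, and Foxc2 and Twist1, transcription factors of the mesenchyme. Col1a1, Foxc2 and Twist1 were also marked in WT and the deletion list. H3K27ac in all 4 chondrocyte lists and not in fibroblasts was found at 1.44% of all genes. The reverse was found at Dlx1, which was not marked in WT or the deletion list either, as at 1.78% of all genes. Of 11 other transcription regulators of bone, 7 were marked in Rep1, 9 in Rep2 and 7 in fibroblasts. Of the 5 other Dlx and Msx genes, all had H3K4me2, none had H3K27ac in either replicate, Dlx1 had it in fibroblasts and Dlx2 in WT and the deletion list. Zbtb16 shared the pattern of Sp7 and Dlx6, with H3K4me2 and the WT library alone.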

How the data were processed

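ChIP-Seq peak lists of 6 libraries were used as the authors deposited them, and the input library was not analysed here. Per the submitters' processing notes and the study's methods, fastp was used to clean the reads, which were then mapped to mm9 with Bowtie2 2.4.4, and peaks were called per library with MACS2 2.2.4 against input at its default q-value threshold, without pooling of replicates. Chondrocyte replicate 1, H3K4me2 and fibroblasts hold the deposited score only (lowest 50), in the format of earlier MACS releases. This is at odds with the MACS2 version named, and the threshold of these lists is not known. Replicate 2, WT and the deletion list hold a deposited score, the fold enrichment (ratio) over the local background, and −log10 p and −log10 q, with a lowest −log10 q of 1.33, 2.05 and 2.01. Thresholds thus differed between lists. Scores ranked peaks within a list, ties taking the lower rank, and were never compared between lists. No read numbers are given, so the depth is unknown.

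Genes were taken from GENCODE vM1 (mm9, 22350 protein-coding genes) and RefSeq (GRCm38), matched by symbol, with overlapping models of 1 symbol joined. This gave 18165 genes. With GRCm38 positions, replicate 2 marked 46.1% of promoters, and with mm9 positions 8.93%. Its build was inferred from these shares, against the mm9 named for the mapping. The other 5 lists marked 7.44% to 16.6% with GRCm38 positions. No coordinate was converted. Overlap meant at least 1 bp. For regions, peaks of all lists were placed by distance from the 5′ end and joined when within 500 bp, and replicates were matched within 1 kb. Shares carry exact Clopper-Pearson 95% intervals. With at most 2 libraries a group, no test was run. Sequences came from RefSeq promoters (GRCm38) and the mm9 genome. From the promoter sequences, bases in annotated exons of the genes were left out except 30-base motif stretches. The summit sequence was not screened for exons.

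The genes named were the 9 members, the highest-ranking peak of each list in each window, distal replicate 1 peaks in the top 10%, other osteogenic genes marked in both replicates and not in fibroblasts or the reverse, and listed genes with the pattern of a member. The 12 chondrocyte regions and the tandem motif were singled out after their values were seen. Members and lists were chosen with earlier results of these data known. Hdac4 and Lect1 of the lists had no match by symbol. Promoter calls and overlaps were tested on simulated peaks and checked against bedtools 2.31.1. Alternatives were other promoter windows, 1 TSS a gene, equal numbers of top peaks, lists cut to their higher-scoring 50%, 50% reciprocal overlap, windows of 50 kb, merged peaks, nearest-gene assignment and WT in place of replicate 1. Scripts ran in Python 3.11.15 with pandas 2.3.3, numpy 2.4.6, matplotlib 3.10.9 and scipy 1.17.1.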

Additional observations from a re-analysis of the deposited data

How the results depend on the processing

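Of 104 alternative values, 72 stayed within their limits and 32 moved. With the higher-scoring 50% of each list, WT marked the promoters of 4 of the 9 genes, gene body peaks were found at 2 genes in replicate 2, 1 in fibroblasts and 3 in the deletion list, and the windows held 41, 25, 80, 20, 51 and 34 peaks (replicates 1 and 2, H3K4me2, fibroblasts, WT and the deletion list). H3K27ac peaks with H3K4me2 then came to 78%. With equal numbers of top peaks, H3K4me2 marked 5 promoters and 2 gene bodies, its windows held 40 peaks and those of WT 63, H3K4me2 peaks with H3K27ac came to 64.8%, H3K27ac peaks with H3K4me2 to 52.2% and WT peaks absent in the deletion to 20.3%. H3K4me2 at all 9 promoters therefore rests on the length of that list. With 1 TSS a gene, fibroblasts marked 2 promoters. Counting only peaks nearest to the 9 genes left 35, 36, 93, 21, 66 and 45 peaks in the windows, in the same order of lists. With 50% reciprocal overlap, H3K4me2 peaks with H3K27ac came to 26.8%, the converse to 60.9%, replicate 1 peaks absent in fibroblasts to 72.5%, fibroblast peaks absent in replicate 1 to 58.7% and WT peaks absent in the deletion to 53.8%. Without replicate 1 and with WT in its place, peaks with H3K4me2 came to 76.9% and peaks absent in fibroblasts to 63.5%. Unless the alternative's own construction (fewer peaks, a stricter overlap) explains the change, the cause was not tested. The unknown depth limits every absence of a peak, most of all in the shorter lists. No paired analysis was possible because WT and the deletion, which came from littermates, had 1 library each, the other groups compared share fewer than 2 replicate numbers, and no test was run.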
